A study of Rattus norvegicus with 4 samples.

Results

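Smooth muscle cells of the rat esophagus were followed through X-ray irradiation in 4 single-cell RNA-seq libraries, and 1710 of the 40724 cells kept carried the smooth muscle signature. A cell was kept with at least 500 unique molecular identifiers (UMIs, 1 tag per captured transcript) and at most 20% of them from mitochondrial genes. It counted as smooth muscle when Myh11, Actg2, Acta2 and Tagln together made up at least 20 of every 10000 UMIs with at least 1 UMI of Myh11, when Krt5 stayed at or under 5 per 10000, and when no UMI of Ptprc was seen. The UMIs of Myh11, Actg2, Mustn1 and Pln also had to outnumber those of the pericyte genes Rgs5, Kcnj8, Abcc9, Higd1b and Vtn. A further condition, no UMI of Pecam1, removed no cell because that symbol matched no feature name used here. The cells were thus chosen by their levels of these genes, which are given below as descriptions only.

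In the rat the outer muscle coat of the esophagus is striated, and smooth muscle lies in the muscularis mucosae, the thin layer beneath the epithelium, and in the walls of blood vessels. A smooth muscle cell contracts when calcium activates myosin light chain kinase, and actin, smooth muscle myosin, calponin and tropomyosin form the contractile apparatus. Under injury such cells can lower contractile genes and make matrix proteins such as collagens, osteopontin and tenascin.

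All animals were male Sprague-Dawley rats, 6 weeks old, and the esophagi of 5 rats were pooled into 1 library per group. The 35 Gy pool received 1 X-ray dose of 35 Gy to the esophageal region and was collected 7 days later. The 5×7 Gy day 7 and 5×7 Gy day 14 pools received 7 Gy on each of 5 days and were collected 7 or 14 days later. Control rats had 5 fractions set to 0 Gy, with tissue taken at day 7. Tissue was kept cold in storage solution, digested with collagenase I, DNase I and trypsin, and cleared of dead cells before capture. The day 14 pool has no control of its own day, so day and dose cannot be told apart there. Since each group is a single pool, no difference could be checked against replicates and none was tested. Values in parentheses after a share or ratio are 95% bounds from counting error alone. The 3 comparisons with the control share that library.

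The signature was found in 214 cells at 35 Gy, 247 cells at 5×7 Gy day 7, 742 cells at 5×7 Gy day 14 and 507 control cells. Their median depth was 5726 UMIs at 35 Gy, 1921 UMIs at 5×7 Gy day 7, 5766 UMIs at 5×7 Gy day 14 and 4799 UMIs in the control, so the 5×7 Gy day 7 cells were the shallowest. Between 26 and 38 barcodes were shared by any pair of libraries and none of them was a smooth muscle cell. Markers of another cell class reached at least 0.5 times the smooth muscle UMIs in 480 of the 1710 cells (28.1%), by library in 43 cells at 35 Gy, 51 cells at 5×7 Gy day 7, 223 cells at 5×7 Gy day 14 and 163 cells in the control. The other 1230 cells form a narrower set, chosen after the data were seen, and its value is given beside a ratio wherever it differs by more than 1.5 times or a 2-fold difference is lost. Scrublet called 111 of the 1710 cells doublets, and 95 of those were among the mixed cells. The 10 cells just inside the contractile threshold had 20.1 to 20.6 contractile UMIs per 10000 and the 10 just outside had 19.6 to 20, and every one of them carried such mixed markers.

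Smooth muscle cells made up 2.20% (1.91 to 2.51) of kept cells at 35 Gy, 2.72% (2.39 to 3.08) at 5×7 Gy day 7, 7.36% (6.86 to 7.89) at 5×7 Gy day 14 and 4.29% (3.93 to 4.67) in the control. Both day 7 irradiated libraries thus held a smaller share than the control and the day 14 library a larger one. The ratio to the control was 0.512 (0.434 to 0.602) at 35 Gy, 0.634 (0.542 to 0.740) at 5×7 Gy day 7 and 1.72 (1.53 to 1.92) at 5×7 Gy day 14. The share at 5×7 Gy day 7 was 1.24 times (1.03 to 1.49) that at 35 Gy. Its bounds took in 1 with a mitochondrial limit of 10% (1.03, 0.813 to 1.30), a minimum of 1000 UMIs (1.17, 0.959 to 1.42), cells thinned to 1000 UMIs (1.12, 0.914 to 1.38), doublet calls left out (1.19, 0.987 to 1.44) or the narrower set (1.23, 0.997 to 1.52). The share at 5×7 Gy day 14 was 2.71 times (2.34 to 3.14) that at 5×7 Gy day 7. These shares depend on the other cells. Epithelial cells made up 27.3% at 35 Gy, 63.7% at 5×7 Gy day 7, 4.36% at 5×7 Gy day 14 and 21.7% in the control. Immune cells made up 33.0% at 35 Gy, 4.50% at 5×7 Gy day 7, 8.12% at 5×7 Gy day 14 and 2.0% in the control. Among cells outside those classes, smooth muscle made up 5.53% at 35 Gy, 8.55% at 5×7 Gy day 7, 8.41% at 5×7 Gy day 14 and 5.62% in the control, and the order changed. The 35 Gy share was then 0.983 times the control share, the 5×7 Gy day 7 share 1.52 times, the 5×7 Gy day 14 share 1.5 times, and the day 14 share 0.984 times the fractionated day 7 share. Cells that fitted no class or several were counted among the cells outside the epithelial and immune classes. They were 2057 of those 3872 cells at 35 Gy and 1445 of 2889 at 5×7 Gy day 7. At 5×7 Gy day 14 they were 2304 of 8822, and in the control 2537 of 9022. What these cells were was not tested. More dissociated cells of one type and fewer of another cannot be told apart in shares.

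**Figure D1:**
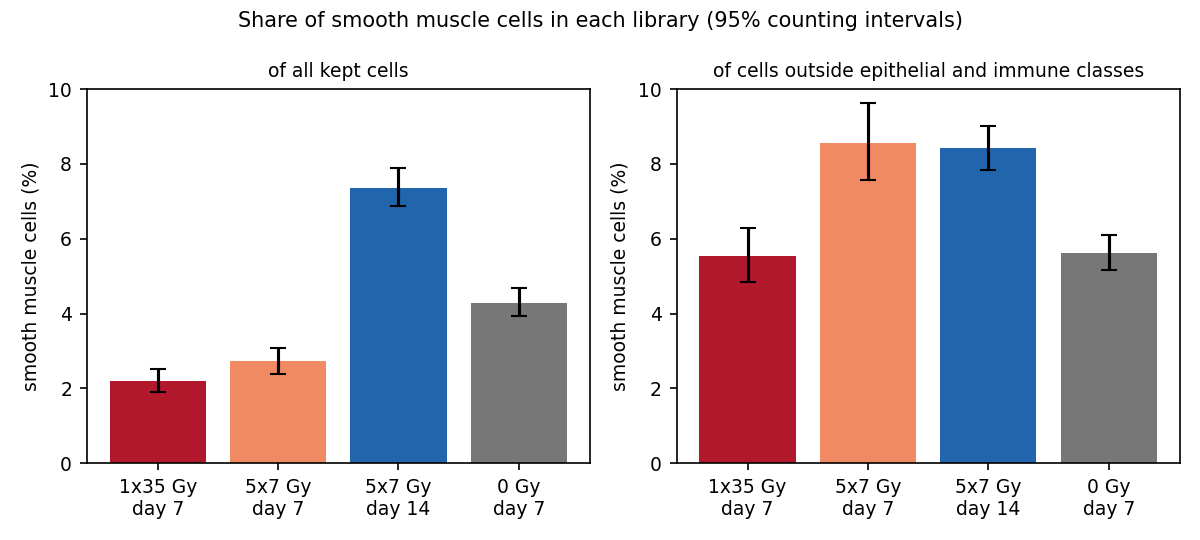
Share of smooth muscle cells (%, y axis) in each library (x axis), of all kept cells (left) and of cells outside the epithelial and immune classes (right); bars are 1 pooled library each and error bars exact 95% counting intervals. On the left the day 14 library stands highest at 7.36%, and on the right both fractionated libraries stand above 8% and the 35 Gy and control libraries near 5.5%.

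Smooth muscle markers are given as a description, since Mustn1 and Pln had entered the rule. Levels are given as CPM, the UMIs of a gene summed over the smooth muscle cells of a library and scaled to a common total. Mustn1, a muscle nuclear protein, was at 1976 CPM at 35 Gy, 2876 CPM at 5×7 Gy day 7, 1890 CPM at 5×7 Gy day 14 and 2296 CPM in the control. Pln (phospholamban, a regulator of the sarcoplasmic calcium pump) was at 478 CPM at 35 Gy, 1347 CPM at 5×7 Gy day 7, 1089 CPM at 5×7 Gy day 14 and 790 CPM in the control. In pericytes of the same libraries Pln was at 204 CPM at 35 Gy, 817 CPM at 5×7 Gy day 7, 403 CPM at 5×7 Gy day 14 and 180 CPM in the control. The pericyte class held 114 cells at 35 Gy, 66 at 5×7 Gy day 7, 273 at 5×7 Gy day 14 and 132 in the control. Over the 4 libraries summed, the genes standing farthest above every other cell class were Rergl, a Ras-related gene, at 218 CPM against 2.0 CPM in pericytes, Aoc1, a diamine oxidase, at 5.90 CPM against 0.0795 CPM in immune cells, and Grip2, a scaffold protein, at 32.4 CPM against at most 0.451 CPM elsewhere. Cnn1 was at 470 CPM against 7.36 CPM in immune cells, and P2rx1, an ATP-gated cation channel of smooth muscle, at 120 CPM against 6.64 CPM. Such genes follow from choosing cells by contractile UMIs and are no test of identity. The muscarinic receptors Chrm2 and Chrm3, which carry the signal of acetylcholine in gut smooth muscle, had at most 4 UMIs in any library, and Nkx2-3 and Npnt, listed as visceral smooth muscle genes, had no UMI in any library.

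Contractile genes were detected in every library, with desmin, calponin and enteric actin highest at 35 Gy. Myh11, the smooth muscle myosin heavy chain, was at 3037 CPM at 35 Gy, 3436 CPM at 5×7 Gy day 7, 3482 CPM at 5×7 Gy day 14 and 3396 CPM in the control. Its ratio to the control was −0.16 (−0.21 to −0.11) on the log2 scale at 35 Gy, 0.02 (−0.05 to 0.09) at 5×7 Gy day 7 and 0.04 (−0.00 to 0.07) at 5×7 Gy day 14. Actg2, the enteric smooth muscle actin, was at 3039 CPM at 35 Gy, 1401 CPM at 5×7 Gy day 7, 686 CPM at 5×7 Gy day 14 and 1211 CPM in the control, and a single cell held 20.1% of its UMIs at 5×7 Gy day 14. Acta2, the vascular type of smooth muscle actin, was at 4656 CPM at 35 Gy, 5235 CPM at 5×7 Gy day 7, 1810 CPM at 5×7 Gy day 14 and 2640 CPM in the control, with both irradiated day 7 libraries above the control and the day 14 library below it. Tagln, an actin-binding protein, was at 18400 CPM at 35 Gy, 11629 CPM at 5×7 Gy day 7, 10249 CPM at 5×7 Gy day 14 and 14065 CPM in the control. All of these chose the cells, and the remaining 31 genes of the contractile list did not.

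Among those 31, Des (desmin, the intermediate filament of muscle) was at 3846 CPM at 35 Gy, 1327 CPM at 5×7 Gy day 7, 1464 CPM at 5×7 Gy day 14 and 1689 CPM in the control. Cnn1, the actin-binding calponin, was at 1023 CPM at 35 Gy, 412 CPM at 5×7 Gy day 7, 313 CPM at 5×7 Gy day 14 and 470 CPM in the control. For both, the 35 Gy library was the highest and the day 7 and day 14 fractionated libraries lay below the control. Tpm4, a tropomyosin of the cytoskeleton, was at 313 CPM at 35 Gy, 54.1 CPM at 5×7 Gy day 7, 196 CPM at 5×7 Gy day 14 and 100 CPM in the control. Tpm2, a muscle tropomyosin, was at 7066 CPM at 35 Gy, 2990 CPM at 5×7 Gy day 7, 5059 CPM at 5×7 Gy day 14 and 5585 CPM in the control, with 5×7 Gy day 7 lowest. Flna (filamin A, an actin cross-linker) was at 1365 CPM at 35 Gy, 2116 CPM at 5×7 Gy day 7, 1018 CPM at 5×7 Gy day 14 and 1069 CPM in the control, with 5×7 Gy day 7 highest. Nexn, an actin-binding protein of muscle, was at 193 CPM at 35 Gy, 120 CPM at 5×7 Gy day 7, 246 CPM at 5×7 Gy day 14 and 179 CPM in the control. Against the control, 3 of the 31 contractile genes were at least 2-fold higher and 0 lower at 35 Gy (median log2 ratio 0.34, and 2 higher with a median of 0.13 in the narrower set), 0 higher and 1 lower at 5×7 Gy day 7 (median −0.24), and 0 in either direction at 5×7 Gy day 14 (median −0.21). Over all genes with at least 20 UMIs in a pair, 5.90% were at least 2-fold higher and 13.0% lower at 35 Gy, 9.41% higher and 12.2% lower at 5×7 Gy day 7, and 7.17% higher and 2.88% lower at 5×7 Gy day 14. Those shares in the narrower set were 7.87% and 9.37% at 35 Gy, 9.45% and 12.3% at 5×7 Gy day 7, and 8.42% and 2.59% at 5×7 Gy day 14. The all-gene medians were 0.03 at 35 Gy, 0.03 at 5×7 Gy day 7 and 0.12 at 5×7 Gy day 14. Median-of-ratios scaling moved them to −0.08 at 35 Gy, −0.13 at 5×7 Gy day 7 and 0.08 at 5×7 Gy day 14. For day 14 over day 7 after 5×7 Gy it gave 0.21 in place of 0.09.

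**Figure D2:**
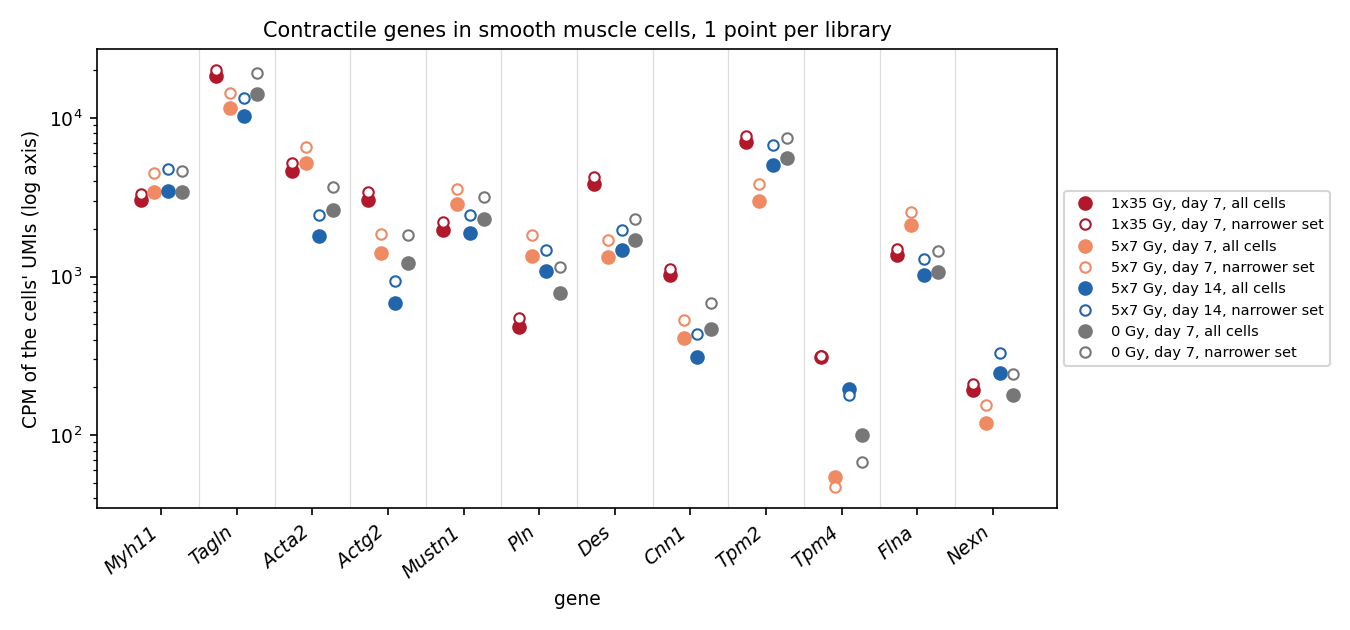
Level (CPM, log y axis) of 12 contractile genes (x axis) in smooth muscle cells; each point is 1 pooled library, filled for all cells and open for the narrower set. Des, Cnn1 and Actg2 stand highest at 35 Gy, and Acta2 is 4656 and 5235 CPM in the 2 irradiated day 7 libraries, above 2640 CPM in the control.

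At 35 Gy, smooth muscle cells had more desmin, calponin and Tpm4 than control cells. They also had more of the type IV and XVIII collagens, of osteopontin and of the endothelin B receptor, and less of most immediate-early genes. Of 8985 genes, 530 were at least 2-fold higher and 1166 lower. Tpm4 had a log2 ratio of 1.64 (1.42 to 1.86, 2.23 in the narrower set). Des had one of 1.19 (1.13 to 1.24, 0.88 in the narrower set with bounds of 0.82 and 0.94), Cnn1 of 1.12 (1.01 to 1.23, 0.72 in the narrower set with bounds of 0.61 and 0.84) and Actg2 of 1.33 (1.26 to 1.39, 0.89 in the narrower set with bounds of 0.82 and 0.95), and these 3 were under 2-fold without the mixed cells. Actg2 had entered the choice of cells, so its ratio is a description only. The basement membrane is the sheet of collagen IV and laminin around each smooth muscle cell, and 4 of 28 genes of that list were at least 2-fold higher and 4 lower (median log2 ratio −0.02). Col4a1, a collagen IV chain, was at 1693 CPM at 35 Gy, 1045 CPM at 5×7 Gy day 7, 735 CPM at 5×7 Gy day 14 and 445 CPM in the control. The log2 ratio of Col4a1 to the control was 1.93 (1.83 to 2.03) at 35 Gy. Col4a2, its partner chain, was at 107 CPM at 35 Gy, 22.7 CPM at 5×7 Gy day 7, 68.0 CPM at 5×7 Gy day 14 and 28.1 CPM in the control. Col18a1, the collagen of the endostatin fragment, was at 628 CPM at 35 Gy, 436 CPM at 5×7 Gy day 7, 270 CPM at 5×7 Gy day 14 and 158 CPM in the control, so that every irradiated library lay above the control for both Col4a1 and Col18a1. In pericytes, cells of small vessels that also make collagen IV, Col4a1 was at 3075 CPM at 35 Gy, 3669 CPM at 5×7 Gy day 7, 3352 CPM at 5×7 Gy day 14 and 1743 CPM in the control.

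Matrix genes outside the basement membrane lay on both sides of the control at 35 Gy. Of 35 genes of the synthetic list 6 were at least 2-fold higher and 12 lower, with a median log2 ratio of −0.33, and in the narrower set 11 of 34 were higher and 5 lower, with a median of 0.31. Over all genes the shares were 5.90% higher and 13.0% lower, and 7.87% and 9.37% in the narrower set. Summed fibroblast markers (12 genes) were at 2382 CPM at 35 Gy and 10778 CPM in the control over all cells, and at 1373 and 2358 CPM in the narrower set, and their part in the matrix counts was not tested. Spp1 (osteopontin, a secreted phosphoprotein of injured muscle) was at 277 CPM at 35 Gy, 1.74 CPM at 5×7 Gy day 7, 24.3 CPM at 5×7 Gy day 14 and 24.9 CPM in the control, with 35 Gy far above the others and a log2 ratio to the control of 3.48 (3.11 to 3.86, 4.34 in the narrower set). Tnc (tenascin C, a matrix protein of wounds) was at 436 CPM at 35 Gy, 410 CPM at 5×7 Gy day 7, 38.1 CPM at 5×7 Gy day 14 and 30.2 CPM in the control, high in both irradiated day 7 libraries and low at day 14 and in the control. Its log2 ratio to the control was 3.85 (3.52 to 4.19, 5.34 in the narrower set, 3.24 with every cell weighted equally) at 35 Gy and 3.76 (3.40 to 4.14, 3.0 with a mitochondrial limit of 10%) at 5×7 Gy day 7, where a single cell held 25.5% of its UMIs. Col12a1, a collagen that binds other collagen fibrils, was at 257 CPM at 35 Gy, 244 CPM at 5×7 Gy day 7, 115 CPM at 5×7 Gy day 14 and 45.9 CPM in the control, above the control in every irradiated library, and a single cell held 27.9% of its UMIs at 5×7 Gy day 7. Grem1, a secreted BMP antagonist, was at 292 CPM at 35 Gy, 152 CPM at 5×7 Gy day 7, 36.9 CPM at 5×7 Gy day 14 and 28.4 CPM in the control. For Grem1 a single cell held 46.3% of the UMIs at 35 Gy and 44.8% at 5×7 Gy day 7. Ccn2 (connective tissue growth factor) was at 413 CPM at 35 Gy, 122 CPM at 5×7 Gy day 7, 203 CPM at 5×7 Gy day 14 and 96.4 CPM in the control. Ccn2 had a log2 ratio of 2.10 (1.89 to 2.31, 2.98 in the narrower set) at 35 Gy.

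**Figure D3:**
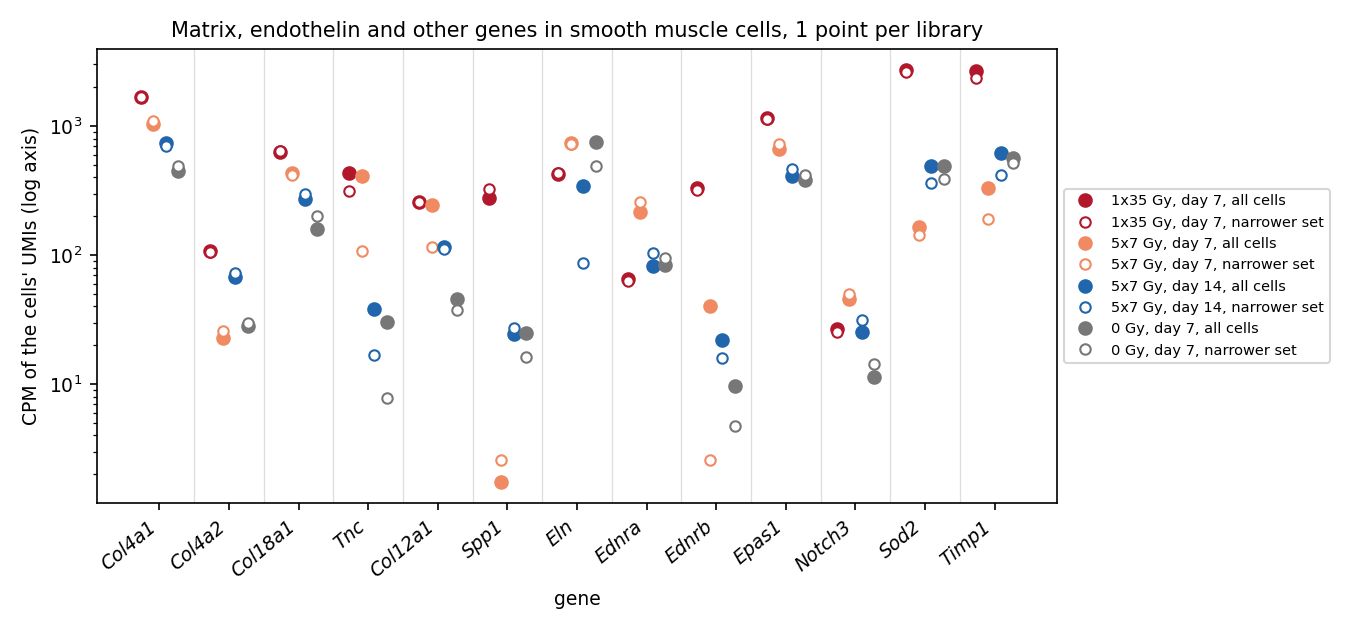
Level (CPM, log y axis) of 13 matrix, receptor and other genes (x axis) in smooth muscle cells; each point is 1 pooled library, filled for all cells and open for the narrower set. Col4a1 and Col18a1 stand above the control in every irradiated library, Spp1 and Ednrb stand highest at 35 Gy, and the open Eln point of 5×7 Gy day 14 lies at 86.4 CPM, under its filled point at 344 CPM.

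Slc39a14, Sod2, Mt2A and Timp1 were highest in the 35 Gy cells. Slc39a14, a zinc and iron importer, was at 178 CPM at 35 Gy, 24.4 CPM at 5×7 Gy day 7, 13.8 CPM at 5×7 Gy day 14 and 7.47 CPM in the control. Slc39a14 had a log2 ratio to the control of 4.57 (3.93 to 5.29, 3.94 in the narrower set, 3.73 with every cell weighted equally). Sod2, the mitochondrial superoxide dismutase, was at 2725 CPM at 35 Gy, 164 CPM at 5×7 Gy day 7, 487 CPM at 5×7 Gy day 14 and 489 CPM in the control. Sod2 had a log2 ratio of 2.48 (2.39 to 2.57). Mt2A, a metallothionein that binds zinc, was at 633 CPM at 35 Gy, 34.9 CPM at 5×7 Gy day 7, 258 CPM at 5×7 Gy day 14 and 175 CPM in the control. Timp1, an inhibitor of matrix metalloproteinases, was at 2665 CPM at 35 Gy, 331 CPM at 5×7 Gy day 7, 622 CPM at 5×7 Gy day 14 and 566 CPM in the control. Timp1 had a log2 ratio of 2.24 (2.15 to 2.32). Other cell classes of the 35 Gy library shared this: Sod2 was at 3994 CPM in its pericytes and 5742 CPM in its fibroblasts, against 393 and 969 CPM in those of the control. Timp1 was at 22347 CPM in the fibroblasts of the 35 Gy library and 1137 CPM in those of the control, and the part of such other cells in the smooth muscle values was not tested. Pnoc, the precursor of nociceptin, had a log2 ratio of 8.19 (6.32 to 11.24, 6.17 with a mitochondrial limit of 10%, 9.04 with a contractile minimum of 40), at 208 CPM at 35 Gy and 0.711 CPM in the control, and 5.61% of the 35 Gy cells held a UMI of it. The chemokine genes Ccl20 (206 CPM at 35 Gy and 1.42 CPM in the control) and Cxcl3 (254 CPM at 35 Gy and 1.78 CPM in the control), which draw lymphocytes and neutrophils, were also high, and in the narrower set 35 Gy cells had 118 CPM of Ccl20 and 43.9 CPM of Cxcl3. A single cell held 46.2% of the Ccl20 and 62.1% of the Cxcl3 UMIs of that library. Summed neutrophil markers (10 genes, Cxcr2 and Retnlg at 0) were at 360 CPM at 35 Gy and 8.18 CPM in the control, and macrophage markers (12 genes) at 452 and 64.4 CPM, and their part in these chemokine values was not tested.

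Among the other genes with the largest folds at 35 Gy, Pi15, a secreted peptidase inhibitor, was at 150 CPM at 35 Gy, 26.2 CPM at 5×7 Gy day 7, 7.02 CPM at 5×7 Gy day 14 and 14.2 CPM in the control. Pi15 had a log2 ratio to the control of 3.40 (2.91 to 3.92, 2.41 with every cell weighted equally). Ahr, the aryl hydrocarbon receptor that senses foreign compounds, was at 91.5 CPM at 35 Gy, 36.6 CPM at 5×7 Gy day 7, 26.1 CPM at 5×7 Gy day 14 and 13.9 CPM in the control. Ahr had a log2 ratio of 2.72 (2.20 to 3.28, 4.35 in the narrower set, 3.31 with a contractile minimum of 40). Irf1, an interferon regulatory factor, was at 21.2 CPM at 35 Gy, 14.0 CPM at 5×7 Gy day 7, 839 CPM at 5×7 Gy day 14 and 762 CPM in the control. Its levels in both irradiated day 7 libraries lay far below those at day 14 and in the control. Irf1 had a log2 ratio of −5.17 (−5.73 to −4.66, −4.53 with every cell weighted equally) at 35 Gy.

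Among receptors that set the tone of smooth muscle, Ednra was highest at 5×7 Gy day 7 and Ednrb was highest at 35 Gy. Ednra, the endothelin A receptor that contracts smooth muscle, was at 64.9 CPM at 35 Gy, 215 CPM at 5×7 Gy day 7, 82.5 CPM at 5×7 Gy day 14 and 83.6 CPM in the control. Ednrb, the endothelin B receptor, was at 331 CPM at 35 Gy, 40.1 CPM at 5×7 Gy day 7, 22.1 CPM at 5×7 Gy day 14 and 9.60 CPM in the control. Ednrb had a log2 ratio to the control of 5.11 (4.55 to 5.72, 6.06 in the narrower set). At 5×7 Gy day 7 the log2 ratio of Ednrb was 2.06 (1.19 to 2.92, −0.87 in the narrower set with bounds of −6.35 and 2.03, 0.77 with a mitochondrial limit of 10%, 1.10 with a contractile minimum of 40), and a single cell held 52.2% of its UMIs there. In the narrower set Ednrb was at 2.60 CPM at 5×7 Gy day 7 and 4.77 CPM in the control, a log2 ratio whose bounds lie on both sides of 0. Npy1r, the neuropeptide Y receptor of vessel walls, was at 231 CPM at 35 Gy, 382 CPM at 5×7 Gy day 7, 292 CPM at 5×7 Gy day 14 and 208 CPM in the control. P2rx1, an ATP-gated cation channel, was at 86.0 CPM at 35 Gy, 150 CPM at 5×7 Gy day 7, 136 CPM at 5×7 Gy day 14 and 103 CPM in the control. For both, 5×7 Gy day 7 was the highest. Agtr1a, the angiotensin II receptor, was at 25.9 CPM at 35 Gy, 19.2 CPM at 5×7 Gy day 7, 10.2 CPM at 5×7 Gy day 14 and 9.60 CPM in the control. Of the contraction receptors 2 of 12 genes were at least 2-fold higher and 1 lower at 35 Gy than in the control, 3 of 13 higher and 3 lower at 5×7 Gy day 7, and 1 of 14 higher and 0 lower at 5×7 Gy day 14. For 5×7 Gy day 7 over 35 Gy 2 of 10 were higher and 4 lower (median log2 ratio 0.06), and 3 of 9 higher and 4 lower without the mixed cells (median −0.69). Over all genes 5.90% were higher and 13.0% lower at 35 Gy than in the control. The shares were 9.41% and 12.2% at 5×7 Gy day 7 and 7.17% and 2.88% at 5×7 Gy day 14. For 5×7 Gy day 7 over 35 Gy they were 10.8% and 12.9%.

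Among pumps and channels, Atp1b2 was highest at 5×7 Gy day 7 and Trpc6 was highest at 35 Gy. Atp1b2, a β subunit of the sodium pump, was at 94.9 CPM at 35 Gy, 490 CPM at 5×7 Gy day 7, 164 CPM at 5×7 Gy day 14 and 156 CPM in the control. Trpc6, a receptor-operated cation channel, was at 45.7 CPM at 35 Gy, 17.4 CPM at 5×7 Gy day 7, 29.7 CPM at 5×7 Gy day 14 and 8.89 CPM in the control, above the control in every irradiated library. Abcc9, a subunit of ATP-sensitive potassium channels and one of the pericyte genes of the rule, was at 244 CPM at 35 Gy, 309 CPM at 5×7 Gy day 7, 104 CPM at 5×7 Gy day 14 and 101 CPM in the control. Of the calcium handling and ion channel list 3 of 26 genes were at least 2-fold higher and 6 lower at 35 Gy than in the control, 2 of 26 higher and 2 lower at 5×7 Gy day 7, and 3 of 27 higher and 0 lower at 5×7 Gy day 14. Over all genes 5.90% were higher and 13.0% lower at 35 Gy. The shares were 9.41% and 12.2% at 5×7 Gy day 7 and 7.17% and 2.88% at 5×7 Gy day 14. Pde3a, a phosphodiesterase that breaks down cAMP, was at 123 CPM at 35 Gy, 73.3 CPM at 5×7 Gy day 7, 97.9 CPM at 5×7 Gy day 14 and 43.7 CPM in the control, above the control in every irradiated library. Rgs2, a brake on Gq signalling, was at 211 CPM at 35 Gy, 8.72 CPM at 5×7 Gy day 7, 53.8 CPM at 5×7 Gy day 14 and 47.3 CPM in the control.

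At 5×7 Gy day 7, smooth muscle cells had more of several interferon-stimulated genes, of Notch3 and of the endothelin A receptor than control cells, and far less of the immediate-early genes described below. Of 8565 genes, 806 were at least 2-fold higher and 1046 lower. With median-of-ratios scaling the share of higher genes among the called ones was 28.4% in place of 43.5%. Lgals3bp, a secreted glycoprotein raised by interferon, was at 42.3 CPM at 35 Gy, 85.5 CPM at 5×7 Gy day 7, 43.1 CPM at 5×7 Gy day 14 and 11.0 CPM in the control. Lgals3bp had a log2 ratio to the control of 2.95 (2.28 to 3.65, 4.13 in the narrower set). Isg15, a ubiquitin-like protein, was at 92.2 CPM at 35 Gy, 183 CPM at 5×7 Gy day 7, 84.7 CPM at 5×7 Gy day 14 and 34.5 CPM in the control. Isg15 had a log2 ratio of 2.41 (2.0 to 2.82). Mx1, a GTPase of antiviral defence, was at 0.683 CPM at 35 Gy, 26.2 CPM at 5×7 Gy day 7, 3.61 CPM at 5×7 Gy day 14 and 2.13 CPM in the control. For Mx1 the 5×7 Gy day 7 library stood above the others, and a single cell held 40% of its Mx1 UMIs. Of the interferon list 7 of 17 genes were at least 2-fold higher and 2 lower at 5×7 Gy day 7 (median log2 ratio 0.74), 3 of 19 higher and 3 lower at 35 Gy (median 0.39), and 12 of 26 higher and 1 lower at 5×7 Gy day 14 (median 0.94). Without the mixed cells the counts were 5 of 11 higher and 2 lower at 5×7 Gy day 7, 2 of 13 higher and 2 lower at 35 Gy, and 8 of 18 higher and 1 lower at 5×7 Gy day 14. Over all genes and all cells 9.41% were higher and 12.2% lower at 5×7 Gy day 7. The shares were 5.90% and 13.0% at 35 Gy and 7.17% and 2.88% at 5×7 Gy day 14. Irf7, a regulator of interferon genes, was at 2.73 CPM at 35 Gy, 5.23 CPM at 5×7 Gy day 7, 16.5 CPM at 5×7 Gy day 14 and 2.84 CPM in the control. Macrophage markers summed to 95.9 CPM at 5×7 Gy day 7, 522 CPM at 5×7 Gy day 14 and 64.4 CPM in the control, and their part in the day 14 count was not tested. Of the pericyte markers 4 of 11 genes were at least 2-fold higher and 0 lower at 5×7 Gy day 7. Their median log2 ratio was 0.85, and 0.80 in the narrower set. Summed pericyte markers (12 genes) were at 1994 CPM at 35 Gy, 2880 CPM at 5×7 Gy day 7, 2428 CPM at 5×7 Gy day 14 and 1770 CPM in the control. Their part in the Notch3 and Ednra levels was not tested.

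Other genes with large folds at 5×7 Gy day 7 were Ifi27l2b, Ogt, Lrp5 and Tef. Ifi27l2b, an interferon-inducible gene, was at 229 CPM at 35 Gy, 722 CPM at 5×7 Gy day 7, 462 CPM at 5×7 Gy day 14 and 166 CPM in the control. Ifi27l2b had a log2 ratio to the control of 2.12 (1.93 to 2.31). Ogt, the enzyme that adds O-GlcNAc to proteins, was at 21.8 CPM at 35 Gy, 99.4 CPM at 5×7 Gy day 7, 24.1 CPM at 5×7 Gy day 14 and 20.6 CPM in the control. Ogt had a log2 ratio of 2.27 (1.72 to 2.82). Lrp5, a Wnt co-receptor, was at 13.7 CPM at 35 Gy, 43.6 CPM at 5×7 Gy day 7, 13.4 CPM at 5×7 Gy day 14 and 9.60 CPM in the control. Lrp5 had a log2 ratio of 2.18 (1.34 to 3.02). Tef, a transcription factor of the circadian output, was at 6.83 CPM at 35 Gy, 45.4 CPM at 5×7 Gy day 7, 17.1 CPM at 5×7 Gy day 14 and 9.96 CPM in the control. For these genes the 5×7 Gy day 7 library was the highest of the 4.

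Notch3, the Notch receptor of vascular smooth muscle, was at 26.6 CPM at 35 Gy, 45.4 CPM at 5×7 Gy day 7, 25.3 CPM at 5×7 Gy day 14 and 11.4 CPM in the control, above the control in every irradiated library. Notch3 had a log2 ratio of 1.99 (1.19 to 2.79) at 5×7 Gy day 7. In thinned smooth muscle cells, a UMI of Notch3 was seen in 4.02% (1.75 to 7.77) at 35 Gy and 3.18% (1.29 to 6.45) at 5×7 Gy day 7. It was seen in 2.32% (1.33 to 3.74) at 5×7 Gy day 14 and 1.28% (0.47 to 2.76) in the control. These intervals overlap, so at equal depth the shares of cells with Notch3 were not set apart. Epas1, a hypoxia-inducible transcription factor of vascular cells, was at 1161 CPM at 35 Gy, 658 CPM at 5×7 Gy day 7, 407 CPM at 5×7 Gy day 14 and 385 CPM in the control. Epas1 had a log2 ratio of 1.59 (1.48 to 1.70) at 35 Gy, and in pericytes it was at 1270 CPM at 35 Gy, 739 CPM at 5×7 Gy day 7, 396 CPM at 5×7 Gy day 14 and 504 CPM in the control. Of the vascular smooth muscle list 2 of 20 genes were at least 2-fold higher and 3 lower at 35 Gy, 4 of 20 higher and 1 lower at 5×7 Gy day 7, and 2 of 21 higher and 1 lower at 5×7 Gy day 14, all against the control. Over all genes 5.90% were higher and 13.0% lower at 35 Gy. The shares were 9.41% and 12.2% at 5×7 Gy day 7 and 7.17% and 2.88% at 5×7 Gy day 14. Of the visceral list 2 of 10 were higher and 0 lower at 35 Gy, 2 higher and 1 lower at 5×7 Gy day 7, and 0 in either direction at 5×7 Gy day 14. Without the mixed cells 0 of 10 visceral genes were higher and 0 lower at 35 Gy (median log2 ratio −0.17). At 5×7 Gy day 14 it was 1 higher and 0 lower. The visceral list includes Actg2, which chose the cells. Pcp4, a calmodulin-binding peptide of that list, was at 26.6 CPM at 35 Gy, 108 CPM at 5×7 Gy day 7, 26.5 CPM at 5×7 Gy day 14 and 33.4 CPM in the control, high at 5×7 Gy day 7.

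The p53 target genes Ccng1, Aen and Rps27l stood above the control in smooth muscle cells of every irradiated library. The tumour suppressor p53 is stabilised by DNA damage, and it raises genes that stop the cell cycle or start cell death by binding sites made of 2 half-sites. Of the core p53 list 3 of 20 genes were at least 2-fold higher and 5 lower at 35 Gy than in the control (median log2 ratio −0.09). At 5×7 Gy day 7 the count was 4 of 21 higher and 4 lower (median 0.12). At 5×7 Gy day 14 it was 8 of 27 higher and 1 lower (median 0.65). In the narrower set the 5×7 Gy day 7 count was 3 of 18 higher and 4 lower (median −0.12). The day 14 count was 4 of 23 higher and 1 lower there. Over all genes and all cells 5.90% were higher and 13.0% lower at 35 Gy. The shares were 9.41% and 12.2% at 5×7 Gy day 7 and 7.17% and 2.88% at 5×7 Gy day 14. RefSeq promoter sequences (GRCr8) matched 27 genes of the list, and 5 of them (18.5%) held at least 1 match to the p53 half-site consensus in the 250 bases before the start site, against 2221 of 33469 promoters (6.64%). The consensus reads alike on both strands, and this search was added after the data were seen. The 3 promoters below belong to genes whose values follow, with the half-site in capitals. Ei24 and Sesn1 also held a match. Rps27l, Phlda3, Gdf15, Plk2 and Plk3, whose values follow too, were not among the 5 genes with one. That of Aen lies at chr1:142224283-142224532 on the plus strand, that of Ccng1 at chr10:25684877-25685126 on the minus strand and that of Cdkn1a at chr20:7150682-7150931 on the plus strand. Their half-sites begin 30, 232 and 201 bases before the start site in that order. The list was made of known p53 targets, so a share above that of all promoters says nothing about these cells. Only 1 half-site was sought, and a match describes the letters and shows no binding.
Aen: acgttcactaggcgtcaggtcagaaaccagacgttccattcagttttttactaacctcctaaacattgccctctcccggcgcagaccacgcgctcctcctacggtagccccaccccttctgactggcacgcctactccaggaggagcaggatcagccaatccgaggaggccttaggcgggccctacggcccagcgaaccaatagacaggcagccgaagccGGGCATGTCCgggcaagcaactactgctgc
Ccng1: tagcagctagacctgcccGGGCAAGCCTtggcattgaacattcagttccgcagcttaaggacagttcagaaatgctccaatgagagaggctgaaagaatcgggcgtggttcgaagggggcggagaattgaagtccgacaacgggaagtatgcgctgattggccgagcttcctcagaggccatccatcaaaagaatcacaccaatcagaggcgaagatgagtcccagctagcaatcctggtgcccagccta
Cdkn1a: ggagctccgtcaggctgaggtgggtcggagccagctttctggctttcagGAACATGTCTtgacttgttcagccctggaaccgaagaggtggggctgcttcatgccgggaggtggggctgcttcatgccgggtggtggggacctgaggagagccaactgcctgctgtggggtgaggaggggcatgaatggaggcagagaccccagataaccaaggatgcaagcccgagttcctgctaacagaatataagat

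Ccng1 (cyclin G1, which acts on the p53 regulator MDM2) was at 186 CPM at 35 Gy, 126 CPM at 5×7 Gy day 7, 154 CPM at 5×7 Gy day 14 and 36.6 CPM in the control. Its log2 ratio to the control was 2.35 (2.02 to 2.69) at 35 Gy, 1.78 (1.32 to 2.23) at 5×7 Gy day 7 and 2.07 (1.78 to 2.39) at 5×7 Gy day 14. Aen, a nuclease that acts in cell death, was at 41.6 CPM at 35 Gy, 27.9 CPM at 5×7 Gy day 7, 59.2 CPM at 5×7 Gy day 14 and 11.7 CPM in the control, with log2 ratios of 1.83 (1.19 to 2.48) at 35 Gy, 1.25 (0.29 to 2.15) at 5×7 Gy day 7 and 2.33 (1.81 to 2.90) at 5×7 Gy day 14. Rps27l, a ribosomal protein paralog induced by p53, was at 592 CPM at 35 Gy, 593 CPM at 5×7 Gy day 7, 501 CPM at 5×7 Gy day 14 and 218 CPM in the control. Reads of Rps27l and its near-identical paralog Rps27 may have been divided by the authors' counting. Cdkn1a (p21, the inhibitor that stops the cell cycle) was at 300 CPM at 35 Gy, 202 CPM at 5×7 Gy day 7, 723 CPM at 5×7 Gy day 14 and 291 CPM in the control, close to the control at 35 Gy, below it at 5×7 Gy day 7 and above it at day 14. Cdkn1a had a log2 ratio of 1.31 (1.20 to 1.42, 0.71 in the narrower set with bounds of 0.58 and 0.85) there. In endothelial cells Cdkn1a was at 523 CPM at 35 Gy, 494 CPM at 5×7 Gy day 7, 1104 CPM at 5×7 Gy day 14 and 159 CPM in the control, above the control in every irradiated library. Phlda3, an inhibitor of Akt, was at 247 CPM at 35 Gy, 160 CPM at 5×7 Gy day 7, 454 CPM at 5×7 Gy day 14 and 182 CPM in the control. Phlda3 had a log2 ratio of 1.32 (1.18 to 1.46) at day 14. Gdf15, a stress cytokine, was at 0 UMIs at 35 Gy, which allows up to 2.05 CPM, and at 5.23 CPM at 5×7 Gy day 7, 51.6 CPM at 5×7 Gy day 14 and 6.04 CPM in the control. Plk2, a polo-like kinase of the same list, was at 10.9 CPM at 35 Gy, 34.9 CPM at 5×7 Gy day 7, 186 CPM at 5×7 Gy day 14 and 96.4 CPM in the control. Its relative Plk3 was at 12.3 CPM at 35 Gy, 1.74 CPM at 5×7 Gy day 7, 91.3 CPM at 5×7 Gy day 14 and 86.0 CPM in the control. Both lay below the control in the irradiated day 7 libraries. In pericytes Ccng1 was at 204 CPM at 35 Gy, 285 CPM at 5×7 Gy day 7, 279 CPM at 5×7 Gy day 14 and 43.1 CPM in the control. In endothelial cells Ccng1 was at 105 CPM at 35 Gy, 95.6 CPM at 5×7 Gy day 7, 126 CPM at 5×7 Gy day 14 and 16.0 CPM in the control. Both classes were above the control in every irradiated library.

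**Figure D4:**
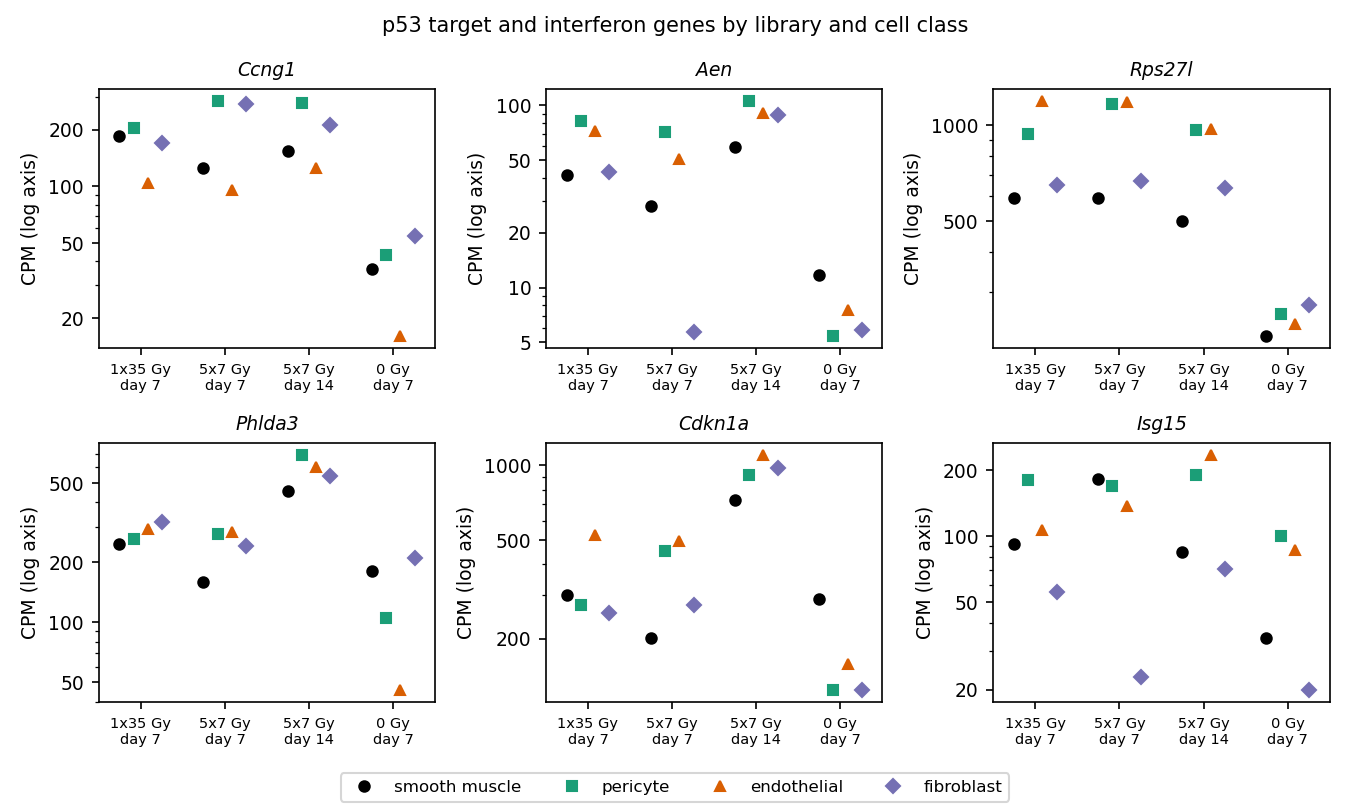
Level (CPM, log y axis) of 5 p53 target genes and Isg15 by library (x axis) in smooth muscle cells, pericytes, endothelial cells and fibroblasts; each point is 1 class of 1 pooled library. Ccng1 and Rps27l stand above the control in every irradiated library and class shown, and Cdkn1a of smooth muscle cells stands above the control at day 14, at 723 CPM against 291 CPM, and not at 5×7 Gy day 7, at 202 CPM. At 5×7 Gy day 7 the points rest on 66 pericytes and 77 fibroblasts.

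At 5×7 Gy day 14, smooth muscle cells had more of several p53 targets and interferon genes than control cells, and less of elastin and of the muscle genes Pgam2, Rrad and Xirp1. Of 10396 genes, 745 were at least 2-fold higher and 299 lower. Pgam2, the muscle form of phosphoglycerate mutase, was at 49.8 CPM at 35 Gy, 101 CPM at 5×7 Gy day 7, 59.8 CPM at 5×7 Gy day 14 and 173 CPM in the control. Pgam2 had a log2 ratio of −1.53 (−1.74 to −1.32). Rrad, a small GTPase that holds back calcium channels, was at 82.6 CPM at 35 Gy, 95.9 CPM at 5×7 Gy day 7, 582 CPM at 5×7 Gy day 14 and 1302 CPM in the control. Xirp1, an actin-binding protein of muscle attachment sites, was at 58.0 CPM at 35 Gy, 40.1 CPM at 5×7 Gy day 7, 80.5 CPM at 5×7 Gy day 14 and 179 CPM in the control. All 3 were lower in every irradiated library than in the control. Eln (elastin, the elastic fibre protein of vessel walls) was at 425 CPM at 35 Gy, 741 CPM at 5×7 Gy day 7, 344 CPM at 5×7 Gy day 14 and 751 CPM in the control. Eln had a log2 ratio of −1.13 (−1.22 to −1.03, −2.5 in the narrower set) at day 14, and in the narrower set it was at 86.4 CPM at 5×7 Gy day 14 and 488 CPM in the control. Mmp2, a gelatinase, was at 174 CPM at 35 Gy, 265 CPM at 5×7 Gy day 7, 497 CPM at 5×7 Gy day 14 and 114 CPM in the control. Mmp2 had a log2 ratio of 2.12 (1.95 to 2.29, 3.12 in the narrower set). Fibroblasts are known makers of Mmp2, and their 12 markers summed to 12570 CPM at 5×7 Gy day 14 and 10778 CPM in the control over all cells, and to 1635 and 2358 CPM in the narrower set. Thrb, the β receptor of thyroid hormone, was at 8.88 CPM at 35 Gy, 15.7 CPM at 5×7 Gy day 7, 11.2 CPM at 5×7 Gy day 14 and 32.0 CPM in the control. Thrb had a log2 ratio of −1.51 (−2.02 to −1.01). Birc2, an inhibitor of apoptosis, was at 41.6 CPM at 35 Gy, 27.9 CPM at 5×7 Gy day 7, 35.9 CPM at 5×7 Gy day 14 and 86.4 CPM in the control. Birc2 had a log2 ratio of −1.27 (−1.55 to −0.98). Cdo1, a cysteine dioxygenase, was at 73.1 CPM at 35 Gy, 66.3 CPM at 5×7 Gy day 7, 42.5 CPM at 5×7 Gy day 14 and 106 CPM in the control. Thrb, Birc2 and Cdo1 all lay below the control in every irradiated library. Tmem100, a membrane protein of vascular cells, was at 7.51 CPM at 35 Gy, 29.7 CPM at 5×7 Gy day 7, 54.6 CPM at 5×7 Gy day 14 and 18.1 CPM in the control. Tmem100 had a log2 ratio of 1.59 (1.15 to 2.05, 2.27 in the narrower set). Grk3, a receptor kinase, was at 4.78 CPM at 35 Gy, 1.74 CPM at 5×7 Gy day 7, 10.0 CPM at 5×7 Gy day 14 and 1.78 CPM in the control. Grk3 was highest at day 14.

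DNA replication genes were detected at low levels. Of the S phase list 0 of 15 genes were at least 2-fold higher and 3 lower at 35 Gy than in the control (median log2 ratio −0.62), 0 of 13 higher and 1 lower at 5×7 Gy day 7 (median −0.37), and 8 of 22 higher and 0 lower at 5×7 Gy day 14 (median 0.48). The list of division genes of the G2 and M phases had 3 of 23 higher and 1 lower at 35 Gy, 4 of 19 higher and 1 lower at 5×7 Gy day 7, and 1 of 28 higher and 1 lower at 5×7 Gy day 14 (median 0.16). Without the mixed cells the day 14 counts were 7 of 19 higher and 0 lower for S phase, and 0 of 20 higher and 6 lower (median −0.62) for G2 and M. At 5×7 Gy day 7 the G2 and M median was 0.43 over all cells. Without the mixed cells 0 of 15 were higher and 4 lower there (median −0.27), so the direction turned. Over all genes 5.90% were higher and 13.0% lower at 35 Gy. The shares were 9.41% and 12.2% at 5×7 Gy day 7 and 7.17% and 2.88% at 5×7 Gy day 14. Mcm5, a subunit of the replicative helicase, was at 1.37 CPM at 35 Gy, 10.5 CPM at 5×7 Gy day 7, 8.03 CPM at 5×7 Gy day 14 and 2.49 CPM in the control. Mcm3, another subunit, was at 2.05 CPM at 35 Gy, 8.72 CPM at 5×7 Gy day 7, 13.0 CPM at 5×7 Gy day 14 and 4.98 CPM in the control. In cells thinned to 1000 UMIs, which sets depth equal, Mki67 or Top2a was seen in 3.02% (1.11 to 6.45) of cells at 35 Gy, 2.27% (0.742 to 5.22) at 5×7 Gy day 7, 1.74% (0.902 to 3.02) at 5×7 Gy day 14 and 1.70% (0.738 to 3.33) in the control. All 4 intervals overlap. Without thinning the shares were 10.3% at 35 Gy, 2.83% at 5×7 Gy day 7, 5.12% at 5×7 Gy day 14 and 6.31% in the control, at the unequal depths given above. In thinned endothelial cells the shares were 1.28% at 35 Gy, 2.46% at 5×7 Gy day 7, 2.26% at 5×7 Gy day 14 and 3.07% in the control. In thinned epithelial cells, which renew throughout life, they were 17.6% at 35 Gy, 10.3% at 5×7 Gy day 7, 11.3% at 5×7 Gy day 14 and 15.6% in the control.

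Immediate-early genes, the transcription factors switched on within minutes of a stimulus, separated both irradiated day 7 libraries from the other 2. Fos was at 766 CPM at 35 Gy, 45.4 CPM at 5×7 Gy day 7, 11920 CPM at 5×7 Gy day 14 and 12747 CPM in the control. Jun was at 443 CPM at 35 Gy, 43.6 CPM at 5×7 Gy day 7, 5725 CPM at 5×7 Gy day 14 and 7597 CPM in the control. Egr1 was at 239 CPM at 35 Gy, 80.2 CPM at 5×7 Gy day 7, 2388 CPM at 5×7 Gy day 14 and 4551 CPM in the control. Atf3 was at 104 CPM at 35 Gy, 10.5 CPM at 5×7 Gy day 7, 3830 CPM at 5×7 Gy day 14 and 5279 CPM in the control. Of that list 0 of 28 genes were at least 2-fold higher and 25 lower at 35 Gy than in the control (median log2 ratio −2.71), 0 of 28 higher and 27 lower at 5×7 Gy day 7 (median −4.31), and 2 of 30 higher and 1 lower at 5×7 Gy day 14 (median −0.25). Over all genes 5.90% were higher and 13.0% lower at 35 Gy. The shares were 9.41% and 12.2% at 5×7 Gy day 7 and 7.17% and 2.88% at 5×7 Gy day 14. A mitochondrial share over the limit was found in 15.2% of barcodes at 35 Gy, 16.6% at 5×7 Gy day 7, 3.71% at 5×7 Gy day 14 and 5.49% in the control. Among barcodes that met the other conditions for smooth muscle it was found in 16.1% at 35 Gy, 7.49% at 5×7 Gy day 7, 9.73% at 5×7 Gy day 14 and 9.63% in the control. With the limit set to 10%, 25 genes of the immediate-early list were at least 2-fold lower at 35 Gy and 26 at 5×7 Gy day 7. The list took 0.603% at 35 Gy, 0.103% at 5×7 Gy day 7, 4.34% at 5×7 Gy day 14 and 5.35% in the control, as a share of all UMIs of the cells. Hspa1b, an inducible heat shock protein, was at 231 CPM at 35 Gy, 22.7 CPM at 5×7 Gy day 7, 3993 CPM at 5×7 Gy day 14 and 3996 CPM in the control. Of the heat shock list 0 of 18 genes were at least 2-fold higher and 10 lower at 35 Gy, 0 higher and 11 lower at 5×7 Gy day 7, and 0 higher and 1 lower at 5×7 Gy day 14. The division ran through other cells of the same libraries. In fibroblasts Fos was at 371 CPM at 35 Gy, 5.74 CPM at 5×7 Gy day 7, 11360 CPM at 5×7 Gy day 14 and 11935 CPM in the control. The fibroblast class held only 77 cells at 5×7 Gy day 7, with a median of 1094 UMIs, so its low values rest on few UMIs. In endothelial cells Fos was at 256 CPM at 35 Gy, 25.1 CPM at 5×7 Gy day 7, 7615 CPM at 5×7 Gy day 14 and 7034 CPM in the control. The libraries differ in these genes across cell classes, and library and group cannot be told apart with 1 pool per group. Klf4, a factor that represses contractile genes, was at 83.3 CPM at 35 Gy, 43.6 CPM at 5×7 Gy day 7, 883 CPM at 5×7 Gy day 14 and 921 CPM in the control, low in both irradiated day 7 libraries.

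**Figure D5:**
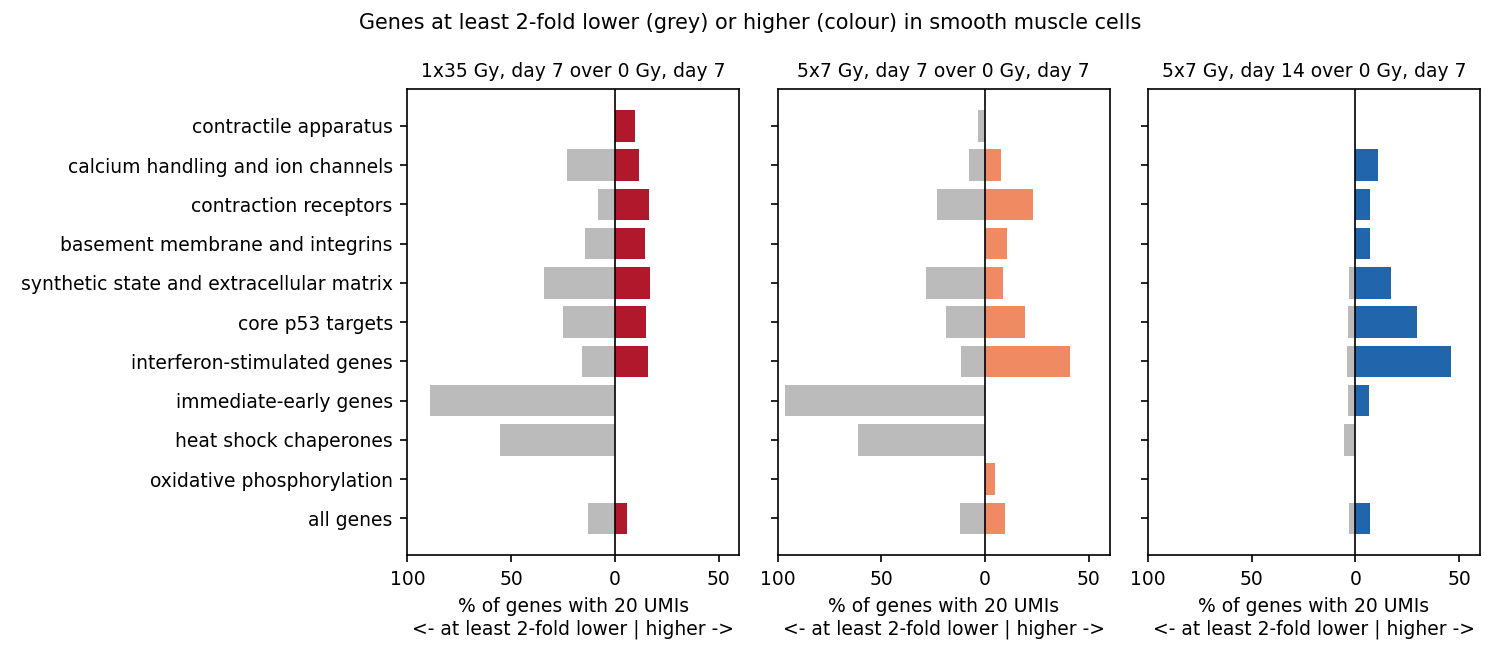
Percent of the genes of each list with at least 20 UMIs (x axis) that were at least 2-fold lower (grey, left) or higher (colour, right) in smooth muscle cells of each irradiated library over the control library they share; the bottom row gives all genes. Immediate-early and heat shock genes reach 25 of 28 and 10 of 18 lower at 35 Gy and 27 of 28 and 11 of 18 lower at 5×7 Gy day 7, and 1 of 30 and 1 of 18 at 5×7 Gy day 14.

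Between the 2 schedules at day 7, the fractionated cells had more of the sodium pump subunit Atp1b2 and of the endothelin A receptor than the single-dose cells. They had less desmin, tropomyosin and osteopontin. Of 7146 genes, 773 (10.8%) were at least 2-fold higher and 921 (12.9%) lower at 5×7 Gy than at 35 Gy. Atp1b2 had a log2 ratio of 2.37 (2.07 to 2.67) and Atp2a3, a sarcoplasmic calcium pump at 106 CPM at 5×7 Gy day 7 and 17.8 CPM at 35 Gy, 2.58 (1.90 to 3.31). Mt3, a metallothionein at 469 CPM at 5×7 Gy day 7 and 56.0 CPM at 35 Gy, had a log2 ratio of 3.07 (2.71 to 3.44). Itga8, the α8 integrin of smooth muscle, was at 246 CPM at 5×7 Gy day 7 and 56.0 CPM at 35 Gy. Itga8 had a log2 ratio of 2.14 (1.73 to 2.55). Gucy1a1, a subunit of the nitric oxide receptor, was at 368 CPM at 5×7 Gy day 7 and 115 CPM at 35 Gy. Gucy1a1 had a log2 ratio of 1.68 (1.38 to 1.98). Ednra had a log2 ratio of 1.73 (1.33 to 2.13). Pln, a gene of the rule and so a description only, had one of 1.49 (1.35 to 1.64). On the lower side stood Spp1 with a log2 ratio of −7.31 (−12.62 to −4.83, −8.29 with every cell weighted equally), Tpm4 with −2.53 (−3.11 to −2.01), Des with −1.53 (−1.65 to −1.43), Tpm2 with −1.24 (−1.32 to −1.17) and Rgs2 with −4.60 (−6.23 to −3.36, −3.91 with every cell weighted equally). Procr, the protein C receptor, was at 15.7 CPM at 5×7 Gy day 7 and 343 CPM at 35 Gy. Procr had a log2 ratio of −4.45 (−5.59 to −3.51). Cebpd, a transcription factor of inflammation, was at 75 CPM at 5×7 Gy day 7 and 903 CPM at 35 Gy. Cebpd had a log2 ratio of −3.59 (−4.06 to −3.15). Of the contractile list 0 of 31 genes were higher and 4 lower (median log2 ratio −0.55). Over all genes of the narrower set 10.2% were higher and 15.6% lower. Of the calcium handling list 6 of 21 were higher and 2 lower (median 0.56). The 5×7 Gy day 7 cells held 573309 UMIs in all and the 35 Gy cells 1464714, so low genes rest on few UMIs, with 1 UMI of Spp1 at 5×7 Gy day 7.

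Between day 14 and day 7 after 5×7 Gy, the day 14 cells had more immediate-early and heat shock genes and less of Ednra and of tenascin C. Of 9865 genes, 1691 (17.1%) were at least 2-fold higher and 781 (7.92%) lower at day 14 than at day 7. Of the immediate-early list 27 of 29 genes were higher and 0 lower, and Fos had a log2 ratio of 8.04 (7.49 to 8.65). Acta2 and Actg2 chose the cells, so their ratios are a description only. Acta2 had a log2 ratio of −1.53 (−1.59 to −1.47) and Actg2 of −1.03 (−1.14 to −0.92, −0.97 in the narrower set with bounds of −1.09 and −0.85). Ednra had a log2 ratio of −1.38 (−1.67 to −1.08), Tnc of −3.43 (−3.71 to −3.14, −2.66 in the narrower set), and Atp1b2 of −1.58 (−1.78 to −1.38). Vsnl1, a calcium sensor, was at 13.8 CPM at 5×7 Gy day 14 and 76.7 CPM at 5×7 Gy day 7. Vsnl1 had a log2 ratio of −2.47 (−3.04 to −1.89, −1.77 in the narrower set). Agt, the precursor of angiotensin, was at 14.2 CPM at 5×7 Gy day 14 and 61.0 CPM at 5×7 Gy day 7. Agt had a log2 ratio of −2.10 (−2.70 to −1.47, 2.14 in the narrower set with bounds of −0.43 and 7.48). The bounds without mixed cells lie on both sides of 0. Of the contractile list 3 of 31 genes were higher and 1 lower (median log2 ratio −0.10), with Tpm4 at 1.86 (1.34 to 2.42) and Flna at −1.06 (−1.15 to −0.96, −0.98 in the narrower set with bounds of −1.08 and −0.88). Of the synthetic list 15 of 35 genes were higher and 3 lower over all cells, and 6 of 34 higher and 10 lower in the narrower set, so the direction turned when mixed cells were left out. Over all genes 16.6% were higher and 7.85% lower in the narrower set. Fibroblast markers summed to 12570 CPM at day 14 and 4368 CPM at day 7 over all cells, and to 1635 and 1997 CPM in the narrower set.

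Smooth muscle cells also varied within each library. After thinning to 1000 UMIs, a UMI of Actg2 was seen in 68.8% of cells at 35 Gy, 42.3% at 5×7 Gy day 7, 32.5% at 5×7 Gy day 14 and 46.6% in the control. Des was seen in 89.9% at 35 Gy, 68.2% at 5×7 Gy day 7, 66.5% at 5×7 Gy day 14 and 73.2% in the control. Pln was seen in 35.2% at 35 Gy, 65.5% at 5×7 Gy day 7, 57.2% at 5×7 Gy day 14 and 49.1% in the control. Rgs5, a pericyte and vascular gene of the rule, was seen in 15.1% at 35 Gy, 20% at 5×7 Gy day 7, 26.2% at 5×7 Gy day 14 and 12.6% in the control. Cells of the narrower set with and without Actg2 were compared inside each library, a choice made after the data were seen: 120 with and 47 without at 35 Gy, 80 and 92 at 5×7 Gy day 7, 194 and 313 at 5×7 Gy day 14, and 196 and 137 in the control. Of 2052 genes with at least 20 UMIs in each library, 10 were at least 1.5-fold higher in all 4 libraries in the cells with Actg2 and 6 lower. Besides Actg2 itself the higher ones were Cnn1, Fhl1, Myl1, Pgam2, Ccn2, Lims2, Lox, Pcp4 and Srl, of which Cnn1, Myl1 and Srl are muscle genes of contraction and calcium storage and Lox cross-links collagen. The lower ones were Rgs5 and Vtn, both genes of the rule, Ccnd1, Epha2, Itm2a and Mgst3. Actg2, which made the split, is a gene of the rule too. These genes were picked by fold alone. At 5×7 Gy day 7 the bounds of Lims2, Lox, Pcp4, Srl, Itm2a and Vtn took in 1, and in the control those of Pcp4 did. At 35 Gy the bounds were 1.31 to 316 for Pcp4, with 1 UMI in cells without Actg2, and 2.67 to 615 for Pgam2. Cnn1 was 3.17 times (2.56 to 3.98) as high in cells with Actg2 at 35 Gy, 3.27 times (2.35 to 4.61) at 5×7 Gy day 7, 3.0 times (2.67 to 3.37) at 5×7 Gy day 14 and 2.78 times (2.39 to 3.26) in the control. Ccnd1, cyclin D1, was at 159 CPM with and 349 CPM without Actg2 at 35 Gy. Cells with Actg2 were deeper, with medians of 7638 and 4080 UMIs at 35 Gy with and without it.

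Leiden clustering gave 11 clusters, none of which was given a cell type name. In 3 of them at least 80% of cells came from 1 library, and those held 905 of the 1710 cells (52.9%), so that these clusters may stand for libraries and not for types. Spp1, Ednrb and S100a9 led a cluster of 139 cells, 126 of them from 35 Gy and 7 of them mixed. S100a8 was also among its leading genes, and both S100 genes are known from neutrophils. S100a9 was at 132 CPM at 35 Gy, 55.8 CPM at 5×7 Gy day 7, 0.401 CPM at 5×7 Gy day 14 and 0.356 CPM in the control, and a single cell held 44.3% of its UMIs at 35 Gy. Atp1b2 and Pcp4 led one of 222 cells, 169 from 5×7 Gy day 7. Mt3 and Tesc led one of 466 cells, 452 from 5×7 Gy day 14, and Rrad, Pgam2 and Xirp1 led one of 300 cells, 292 from the control. Other clusters had genes of other classes among their leading genes, with Cldn5 and Plvap (endothelial) in 158 cells, Dcn and Col1a1 (fibroblast) in 135 cells, all of them mixed, and Krt13 and Krt4 (epithelial) in 39 cells. Genes such as Scn7a and Mbp, which glia make, were among those leading a further cluster of 91 cells of median depth 826 UMIs. Of a cluster of 121 cells led by Ccl19, Cxcl3, Pnoc, Ccl20 and Grem1, with Tnc also among the leading genes, 89 cells were mixed and the fibroblast gene Dcn was at 1828 CPM. It held 23 cells at 35 Gy, 34 cells at 5×7 Gy day 7, 22 cells at 5×7 Gy day 14 and 42 cells in the control. A cluster of 22 cells had Top2a, Mki67 and Cenpf, genes of dividing cells, among its leading genes.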

How the data were processed

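Dissociated esophagus cells were measured by 10x Genomics 3' single-cell RNA-seq in 4 libraries. The authors deposited raw UMI counts per gene and cell barcode, made with Cell Ranger 5.0.0 per the submitters' processing notes. No source used here gives the annotation release behind the gene names. Libraries held 10468 to 12505 barcodes and 59805782 to 109618791 UMIs.

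Cells were kept, chosen and summed per library with Python 3.11.15, scanpy 1.11.5, numpy 2.4.6, scipy 1.17.1 and pandas 2.3.3. Levels are CPM of the summed counts. Ratios carry exact conditional binomial intervals and shares exact Clopper-Pearson intervals, and a library at 0 was set at a floor of 3 counts. A gene was called at 2-fold among genes with at least 20 UMIs in the pair. Doublets were called with Scrublet and kept in the main values. The 2-fold call and the intervals were run on simulated counts with planted folds, drawn with counting error alone. Those counts hold no variation between cells or pools, so the run cannot speak to either. The members, lists and rules were chosen with earlier results of these data known. The named genes are the smooth muscle rule genes, the 8 higher and 8 lower genes with the largest fold per comparison (ranked by the bound nearest to 1, at least 50 UMIs, no cell over 20% of the UMIs, at least 0.5 times the level of any other class), up to 4 genes of each list per comparison, the 12 genes highest over other classes, and the contractile and receptor lists. Clusters used Leiden at resolution 0.5. Alternatives were a mitochondrial limit of 10%, other UMI and contractile minimums, doublets left out, thinning, other scalings and cell weights. The narrower set, a set without endothelial UMIs, the Actg2 split and the p53 half-site search were added after the data were seen. Some genes that the naming rule picked are not reported here.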

Additional observations from a re-analysis of the deposited data

How the results depend on the processing

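No paired analysis was possible because each group has 1 library, and for the same reason no replicate could be left out. The share of smooth muscle cells depended on its denominator. Outside epithelial and immune cells its log2 ratio to the control was −0.02 at 35 Gy, 0.61 at 5×7 Gy day 7 (the direction turned) and 0.58 at 5×7 Gy day 14, and it was 0.63 for 5×7 Gy over 35 Gy at day 7 and −0.02 (−0.23 to 0.19) for day 14 over day 7 after 5×7 Gy. In the narrower set the log2 ratio to the control was −0.73 at 35 Gy and −0.43 at 5×7 Gy day 7. A mitochondrial limit of 10% gave log2 ratios of 1.21 for day 14 over the control and 1.92 for day 14 over day 7. Leaving out cells with a UMI of 5 endothelial genes gave 0.58 and 1.05. With that limit the median depth was 2207 UMIs at 5×7 Gy day 7, 6058 at 5×7 Gy day 14 and 5350 in the control.

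Counts of genes at least 2-fold apart followed the UMI minimum, since it sets how many genes are counted. With a minimum of 1 UMI there were 897 higher and 1826 lower genes at 35 Gy, 1788 higher at 5×7 Gy day 7, 1335 higher and 661 lower at 5×7 Gy day 14, 1527 higher for 5×7 Gy over 35 Gy and 2306 lower for day 14 over day 7. With a minimum of 100 UMIs the higher and lower counts were 208 and 438 at 35 Gy, 227 and 445 at 5×7 Gy day 7, 186 and 91 at 5×7 Gy day 14, 152 and 334 for 5×7 Gy over 35 Gy, and 883 and 270 for day 14 over day 7. The narrower set gave 724 lower genes at 35 Gy.

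Without thinning, Mki67 or Top2a was seen in 10.3% of cells at 35 Gy, 5.12% at 5×7 Gy day 14 and 6.31% in the control. In the narrower set Des was seen in 94.6% at 35 Gy, 75.6% at 5×7 Gy day 7, 77.3% at 5×7 Gy day 14 and 85.9% in the control, and Actg2 in 38.3% at 5×7 Gy day 14 and 58.9% in the control. Clusters mostly of 1 library held 63.0% of cells at resolution 1.0 and 35.2% with doublets left out. Of the log2 gene ratios in the text, 2 changed sign in the narrower set, with bounds on both sides of 0: Ednrb at 5×7 Gy day 7 over the control to −0.87 (−6.35 to 2.03), and Agt at day 14 over day 7 to 2.14 (−0.43 to 7.48). The cause was not tested.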

Other observations

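Other gene groups of smooth muscle cells gave the following counts against the control. Oxidative phosphorylation genes, which make ATP in mitochondria, had 0 of 20 genes at least 2-fold higher or lower at 35 Gy, 1 higher at 5×7 Gy day 7 and 0 at 5×7 Gy day 14. Of the hypoxia and glycolysis list 3 of 29 genes were higher and 6 lower at 35 Gy, 3 higher and 7 lower at 5×7 Gy day 7, and 0 higher and 1 lower at 5×7 Gy day 14. Of the TGF-beta response list 1 of 21 genes was higher and 2 lower at 35 Gy, 2 higher and 10 lower at 5×7 Gy day 7, and 1 higher and 1 lower at 5×7 Gy day 14. Of the NRF2 and antioxidant list 3 of 25 genes were higher and 2 lower at 35 Gy, 5 of 24 higher and 4 lower at 5×7 Gy day 7, and 2 of 25 higher and 1 lower at 5×7 Gy day 14. Beside these lists, 5.90% of all genes were higher and 13.0% lower at 35 Gy. The shares were 9.41% and 12.2% at 5×7 Gy day 7 and 7.17% and 2.88% at 5×7 Gy day 14.

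Growth factors and their receptors had 6 of 35 genes higher and 15 lower at 35 Gy, 7 of 34 higher and 7 lower at 5×7 Gy day 7, and 2 of 37 higher and 3 lower at 5×7 Gy day 14. Inflammatory mediators had 10 of 26 genes higher and 10 lower at 35 Gy, 2 of 20 higher and 13 lower at 5×7 Gy day 7, and 5 of 23 higher and 0 lower at 5×7 Gy day 14. In the narrower set the inflammatory counts were 6 of 18 higher and 7 lower at 35 Gy, 1 of 12 higher and 10 lower at 5×7 Gy day 7, and 1 of 17 higher and 3 lower at 5×7 Gy day 14. Beside these lists, 5.90% of all genes over all cells were higher and 13.0% lower at 35 Gy. The shares were 9.41% and 12.2% at 5×7 Gy day 7 and 7.17% and 2.88% at 5×7 Gy day 14.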
